A study of Mus musculus with 42 samples.

Results

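HOXC6 and HOXC9 binding was compared in unpatterned embryoid bodies (EBs), which are floating aggregates of mouse embryonic stem cells that were given no signal to become spinal neurons. The members were the 10000 strongest binding events of each factor, ranked by the estimated ChIP read count of the event, on chromosomes 1 to 19 and X. They were 20000 of the 1087512 events in all 21 event lists of the series, and they came from full EB lists of 44678 HOXC6 events and 128322 HOXC9 events on these chromosomes. An event was shared when the full list of the other factor held any event within 100 bp, and otherwise it was alone.

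The series covers 42 samples, mostly of differentiating neurons, and the EB part consists of 4 ChIP-seq libraries. iHoxc6 EBs, of the line Ainv15(iFlag.Hoxc6), and iHoxc9 EBs, of the line Ainv15(iFlag.Hoxc9), both received doxycycline (Dox) for 12 h, and each factor was precipitated through its Flag tag in 2 libraries. Both lines carried 1 copy of the transgene at the HPRT locus behind a Dox-inducible promoter, so both proteins were supplied from outside their own gene cluster. The HOXC6 libraries held 14.1 and 19.9 M reads (M, 1000000), with 0.297 and 0.201 of the reads assigned to signal. The HOXC9 libraries were deeper, at 32.5 and 30.0 M reads, and had signal fractions of 0.461 and 0.491. Both factors were called against the same control of 10.5 M reads. The lists hold 1 value per event over the pooled libraries of a factor, so no spread between cultures could be computed and no p-value is given. The 95% intervals on shares (Wilson) and on differences of shares (Newcombe) cover the counting of events only. Differences in depth and in signal fraction cannot be told apart from the difference between the factors.

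Hox proteins are homeodomain transcription factors that give cells their identity along the head-to-tail axis. HOXC6 belongs to the central paralogs, which are known to favour the core TAAT, and acts at the level of the forelimb. HOXC9 belongs to the posterior paralogs, which are known to favour TTTAT, and acts in the thoracic segments. Both can bind together with PBX and MEIS proteins, homeodomain cofactors of the TALE class. Unpatterned EBs had not been led towards any of these levels, and the authors describe them as undifferentiated cells.

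The strongest events of each class are shown first, because the words they carry recur in the comparisons. Each line gives 61 bases of the plus strand of GRCm38, centred on the event, and capitals mark TTTAT, TAAT, the PBX-Hox word TGATTNAT or CAGCAGG on either strand, which can overlap. The strongest shared HOXC6 events lay in an intron of Dner, between genes beside Gpr84, and between genes near Tbl1xr1.
HOXC6 shared, chr1:84549725-84549785: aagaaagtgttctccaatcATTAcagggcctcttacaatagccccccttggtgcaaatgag
HOXC6 shared, chr15:103305344-103305404: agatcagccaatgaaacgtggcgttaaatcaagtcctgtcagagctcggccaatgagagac
HOXC6 shared, chr3:21892250-21892310: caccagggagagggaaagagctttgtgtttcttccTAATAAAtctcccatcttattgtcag

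The strongest shared HOXC9 events lay in introns of Crybg3 and Exoc4 and between genes near Hormad2, and each printed window held TTTAT or its reverse complement ATAAA.
HOXC9 shared, chr16:59588397-59588457: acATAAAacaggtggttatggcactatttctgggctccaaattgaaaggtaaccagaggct
HOXC9 shared, chr11:4472713-4472773: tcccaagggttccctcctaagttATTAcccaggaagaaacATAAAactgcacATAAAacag
HOXC9 shared, chr6:33732334-33732394: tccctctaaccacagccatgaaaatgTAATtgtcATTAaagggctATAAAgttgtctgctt

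The strongest HOXC9-alone events lay in introns of Eri3 and Tmem170b and between genes with Hnrnpa3 as the nearest start, and their windows held 2, 2 and 3 copies of TTTAT or ATAAA.
HOXC9-alone, chr4:117630516-117630576: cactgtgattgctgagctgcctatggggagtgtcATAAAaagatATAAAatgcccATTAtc
HOXC9-alone, chr13:41633955-41634015: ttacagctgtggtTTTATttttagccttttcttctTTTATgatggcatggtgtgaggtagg
HOXC9-alone, chr2:75253003-75253063: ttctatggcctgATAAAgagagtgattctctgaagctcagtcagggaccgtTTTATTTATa

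Of the 3 strongest HOXC6-alone events, 2 lay in exons of Otx1 and Foxa2, and their sequence is not printed. The other was in an intron of Dglucy with a HOXC9 event 108 bp away. It is printed with the 3 strongest HOXC6-alone events that were over 1 kb from any HOXC9 event, outside exons and had under 10 control reads, a choice made after the values were seen.
HOXC6-alone, chr12:100831779-100831839: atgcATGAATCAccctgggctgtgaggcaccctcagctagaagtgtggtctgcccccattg
HOXC6-alone, chr14:80486444-80486504: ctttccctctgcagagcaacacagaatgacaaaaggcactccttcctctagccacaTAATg
HOXC6-alone, chr9:67322016-67322076: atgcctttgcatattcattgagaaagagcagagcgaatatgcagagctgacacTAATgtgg
HOXC6-alone, chr6:55159515-55159575: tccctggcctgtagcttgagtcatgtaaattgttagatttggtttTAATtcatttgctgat

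Nearly all strong HOXC6 sites also held HOXC9, whereas many strong HOXC9 sites held no listed HOXC6. Of the 10000 top HOXC6 events, 9509 were shared (95.1%, interval 94.6 to 95.5) and 491 were alone. Of the 10000 top HOXC9 events, 6315 were shared (63.2%, interval 62.2 to 64.1) and 3685 were alone. Moving the events by 10 kb left shares of 1.68% and 0.73%, the background of the measure. The HOXC9 list was the longer one, and with both lists cut to the 44678 strongest events the shared HOXC6 share was 80.4%, with 1963 events alone, while the HOXC9 share stayed at 63.2% because the HOXC6 list was not shortened. Counting only partners within the other factor's top 10000 gave 38.2% of HOXC6 and 38.9% of HOXC9 events.

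The shared share fell with rank in both lists. It was 99.1% in the first 1000 HOXC6 events and 89.5% in the last 1000 of the top list. For HOXC9 it was 80.2% and 50.4%. The full lists searched for a partner differed in length, so the declines of the HOXC6 and HOXC9 lists were not compared. The HOXC6 top list ended at 163.9 estimated reads and the HOXC9 top list at 552.8, and the first event outside each list had the same value as the last inside, so that the order of positions decided between them. The paired events were close, with a median distance of 16 bp from a shared HOXC6 event to its HOXC9 partner and of 17 bp from a shared HOXC9 event to its HOXC6 partner.

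**Figure D1:**
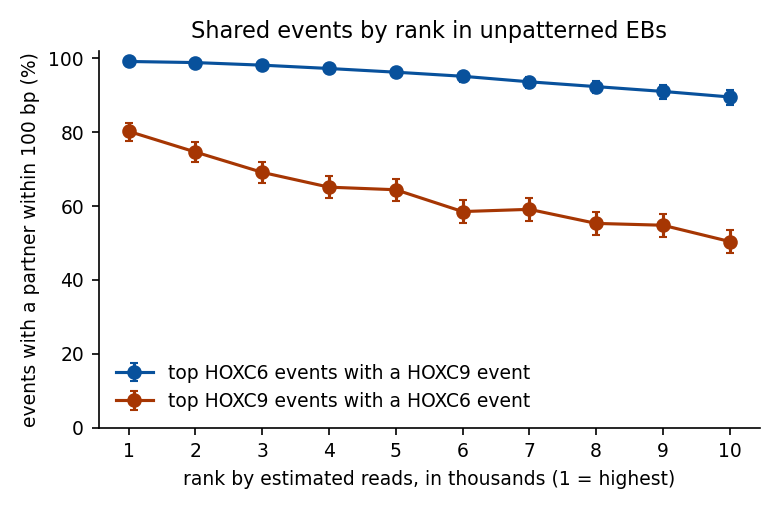
Share of top events with a partner event of the other factor within 100 bp (y axis, percent) against rank in steps of 1000 (x axis), with bars for 95% Wilson intervals. The HOXC6 line runs from 99.1% to 89.5% and the HOXC9 line from 80.2% to 50.4%.

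The limit of 100 bp left out close neighbours. Of the 491 HOXC6-alone events, 163 had a HOXC9 event between 101 and 200 bp away, and 273 had none within 1 kb. Of the 3685 HOXC9-alone events, 285 had a HOXC6 event between 101 and 200 bp away, and 2960 had none within 1 kb. HOXC6-alone was thus the class that depended most on the limit. Just inside it, a HOXC6 event at chr1:151178797 with 684.0 reads lay 100 bp from a HOXC9 event of 1463 reads. Just outside, a HOXC6 event at chr1:89870790 with 337.2 reads, in an intron of Agap1, lay 101 bp from a HOXC9 event of 599.1 reads.

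Words of Hox binding separated the HOXC9-alone events from the rest. TTTAT on either strand within 50 bp was present at 74.5% of HOXC9-alone events (interval 73.1 to 75.9), 44.2% of shared HOXC9 events, 27.2% of shared HOXC6 events and 19.96% of HOXC6-alone events. Windows of the same length 1 kb to each side held it in 33.2%, 32.8%, 32.1% and 27.8%. Over all GC contents, TTTAT was therefore over its flanks in both HOXC9 classes and under its flanks in both HOXC6 classes. The flanks were not matched to the events in GC, so this comparison does not show enrichment or depletion at equal base composition. At HOXC6 events its direction changed with GC, as given below. HOXC9-alone events exceeded shared HOXC9 events by 30.3 percentage points (interval 28.4 to 32.1). HOXC6-alone events fell below shared HOXC6 events, with a difference of -7.21 points (interval -10.6 to -3.35).

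In the HOXC9 list the central word TAAT moved less than TTTAT, and in the HOXC6 list both moved by a similar amount. TAAT was present at 61.5% of shared HOXC6 events and 53.8% of HOXC6-alone events, and at 71.2% of shared HOXC9 and 74.8% of HOXC9-alone events, against flanks of 50.0%, 47.3%, 51.4% and 51.4%. Over all GC contents, HOXC6-alone minus shared was -7.70 points (interval -12.2 to -3.23), and HOXC9-alone minus shared was 3.58 points (interval 1.77 to 5.36). Within strata of GC content the HOXC9 difference had the other sign, as given below. At HOXC9-alone events 5.86% held neither word, compared with 16.0% of shared HOXC9, 28.3% of shared HOXC6 and 36.9% of HOXC6-alone events. Over all GC contents, HOXC6-alone was thus the class in which each of these Hox words was found least often. TTTAC, a spelling related to TTTAT, was present at 38.0% of HOXC9-alone and 27.7% of shared HOXC9 events.

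**Figure D2:**
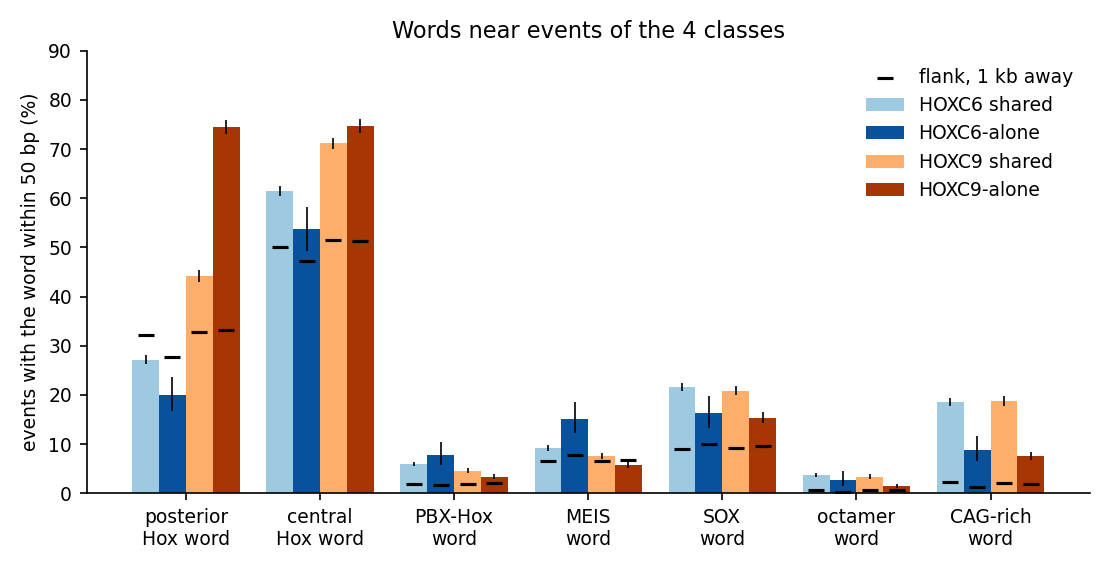
Share of events with a word within 50 bp on either strand (y axis, percent) in the 4 classes, with 95% Wilson intervals and black marks for windows 1 kb away. The axis names the posterior Hox word TTTAT, the central Hox word TAAT, the PBX-Hox word TGATTNAT, the MEIS word TGACAG, the SOX word ACAAAG, the octamer and the CAG-rich word CAGCAGG, and HOXC9-alone reaches 74.5% for TTTAT.

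Base composition and signal moved with these classes, and the TTTAT difference of the HOXC9 list was present within their strata. Median GC content of the 101 bp around the event was 40.6% at HOXC9-alone, 43.6% at shared HOXC9, 46.5% at shared HOXC6 and 47.5% at HOXC6-alone events. Among HOXC9 events with GC of 50% or more, TTTAT was present at 54.5% of alone and 29.5% of shared events. Among those with GC under 35% it was present at 88.2% of alone and 65.0% of shared events. With the HOXC9 list split by estimated reads into 4 equal parts, the shares were 78.7% of alone and 49.1% of shared events in the strongest part and 69.6% and 42.6% in the weakest. For TTTAT, alone exceeded shared in each of the 5 GC strata and the 4 signal strata of the HOXC9 list. For TAAT, alone was below shared in each of the 5 GC strata. It was present at 89.6% of alone and 91.2% of shared events with GC under 35%. With GC of 50% or more the shares were 39.2% and 48.5%, and the intervals of each of these pairs overlap. Between 40% and under 45% GC they were 71.0% (interval 68.2 to 73.5) and 75.5% (interval 73.6 to 77.3), which do not overlap. The intervals overlap in the other GC strata. By signal, TAAT was lower at alone events only in the strongest part (72.3% against 73.1%). In the HOXC6 list the strata were not uniform. With GC under 35%, TTTAT was present at 8 of 12 alone events (66.7%) and 54.8% of shared events, whose flanks held it in 30.7%. With GC from 35% to under 40% it was present at 39.0% of alone and 42.4% of shared events, with flanks of 31.7% and 33.6%. With GC of 50% or more it was present at 11.4% of alone and 15.2% of shared HOXC6 events, with flanks of 24.7% and 28.8%. At HOXC6 events TTTAT was thus over its flanks where GC was under 40% and under them where GC was 50% or more. The strata were set by the GC of the event window, and the flanks were not matched to it. A word of only A and T is favoured in windows of low GC by this choice. The comparison with flanks within a stratum therefore cannot show enrichment or depletion.

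The events of each list stood at a fixed base from a particular word. In the HOXC9 top list TTTAT began 2 bp after the event position 570 times, against a mean of 30.3 at each of the other offsets within 20 bp, and ATAAA began 4 bp after it 585 times, against a mean of 29.6. Such events made up 19.2% of HOXC9-alone and 7.06% of shared HOXC9 events. In the HOXC6 top list no TTTAT offset exceeded 33 events in the forward spelling, and the fixed word was instead CAGCAGG. It began 3 bp after the event 303 times, against a mean of 3.38 at the other offsets, and its reverse complement CCTGCTG began 5 bp after it 304 times. The deposited lists hold a motif score for each event, and the part of a motif model in the placing of events was not tested. Without the events at the fixed TTTAT offsets, HOXC9-alone still exceeded shared HOXC9 by 28.5 points (interval 26.4 to 30.5).

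**Figure D3:**
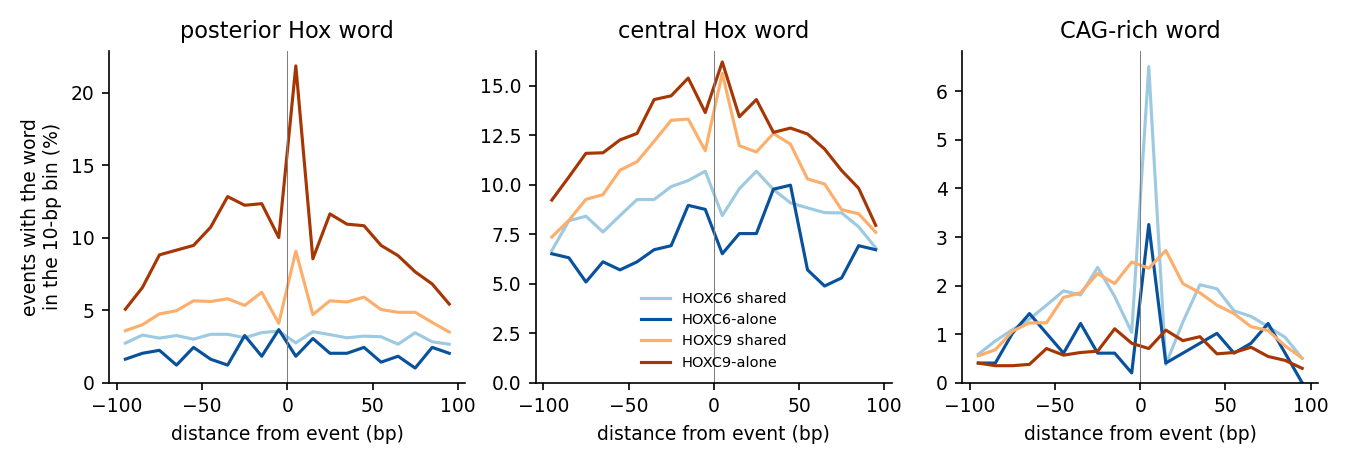
Share of events (y axis, percent) with TTTAT, TAAT or CAGCAGG in each 10-bp bin by distance from the event (x axis, bp) for the 4 classes. TTTAT reaches 21.8% of HOXC9-alone events in the bin from 0 to 9 bp, and CAGCAGG reaches 6.51% of shared HOXC6 events in the same bin.

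CAGCAGG, a word that was looked for after its offset had been seen, was a feature of shared sites of both factors. This word and its complement CCTGCTG lie in the recognition sequence known for ZIC zinc-finger proteins, which are expressed in embryonic stem cells. It was present within 50 bp of 18.5% of shared HOXC6 and 18.7% of shared HOXC9 events, but of 8.76% of HOXC6-alone and 7.46% of HOXC9-alone events, with flanks between 1.32% and 2.19%. Alone minus shared was -9.74 points for HOXC6 (interval -12.1 to -6.81) and -11.3 points for HOXC9 (interval -12.6 to -9.99). The word is rich in G and C, and within HOXC9 events of GC 50% or more it was present at 29.6% of shared and 15.9% of alone events.

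Words of pluripotency factors followed the same order in the HOXC9 list. The octamer ATGCAAAT, recognised by OCT4, was present at 3.36% of shared HOXC9 and 1.44% of HOXC9-alone events (difference -1.92 points, interval -2.50 to -1.31) against 0.689% and 0.692% in the flanks. ACAAAG, a core of SOX binding, was present at 20.9% of shared HOXC9 and 15.3% of HOXC9-alone events (difference -5.55 points, interval -7.07 to -4.00). In the HOXC6 list the octamer was present at 3.73% of shared and 2.65% of alone events, a difference of -1.09 points whose interval of -2.25 to 0.78 spans 0. ACAAAG differed by -5.35 points between HOXC6-alone and shared events (interval -8.47 to -1.73).

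TGATTNAT was present at 7.74% of HOXC6-alone, 5.91% of shared HOXC6, 4.56% of shared HOXC9 and 3.36% of HOXC9-alone events, with flanks of 1.73% to 2.04%. HOXC9-alone minus shared was -1.20 points (interval -1.96 to -0.40), and HOXC6-alone minus shared was 1.83 points, with an interval of -0.28 to 4.57 that spans 0. With full lists of equal length the latter was 3.25 points (interval 1.98 to 4.65), which excludes 0. The MEIS word TGACAG was present at 15.1% of HOXC6-alone and 9.19% of shared HOXC6 events (difference 5.88 points, interval 2.93 to 9.36). At HOXC9-alone events it was present in 5.81%, and in 6.72% of their flanks.

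The strength of both factors at shared sites was compared as the log2 ratio of HOXC9 to HOXC6 estimated reads, each per M reads of its libraries. Events chosen for strong HOXC6 had a median ratio of -0.74 (quartiles -1.58 and 0.15), and events chosen for strong HOXC9 had a median of 1.23 (quartiles 0.01 and 2.53). Each list was chosen on the signal of its own factor, which sets these signs. Without scaling by depth the first median was 0.14, and with the reads weighted by signal fraction the medians were -1.72 and 0.24. The level of the ratio therefore depends on the scaling, whereas differences between groups of events do not, since a scaling shifts every event of a list equally. In both top lists at once were 3739 HOXC6 events, with a median of 0.31, and 3881 HOXC9 events, with a median of 0.30.

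The ratio was higher at sites with TTTAT and at sites of low GC. Among shared HOXC9 events the median was 0.45 with neither Hox word, 0.95 with TAAT only, 1.48 with TTTAT only and 1.92 with both. Among shared HOXC6 events it was -0.99, -0.73, -0.61 and -0.26 in the same order. The order of the 4 groups was the same in both lists, which have sites in common and use the same pooled signals, so they are not independent. Among the HOXC9 events in both top lists the median was 0.62 with TTTAT and 0.12 without. By GC alone, the median of shared HOXC9 events was 1.81 under 40% and 0.69 at 50% or more, and that of shared HOXC6 events was -0.31 and -0.91. In strata of GC, chosen after the data were seen, shared HOXC9 events under 40% had medians of 2.20 with TTTAT and 1.31 without, and those of 50% or more 1.32 and 0.36. Shared HOXC6 events under 40% had medians of -0.12 and -0.42, and those of 50% or more -0.53 and -0.96. The median was higher with TTTAT in each of the 4 GC strata of both lists. At shared HOXC6 events with TGATTNAT the median was -1.13, against -0.72 without it, and at shared HOXC9 events it was 1.07 and 1.23, where the intervals of the medians overlap.

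**Figure D4:**
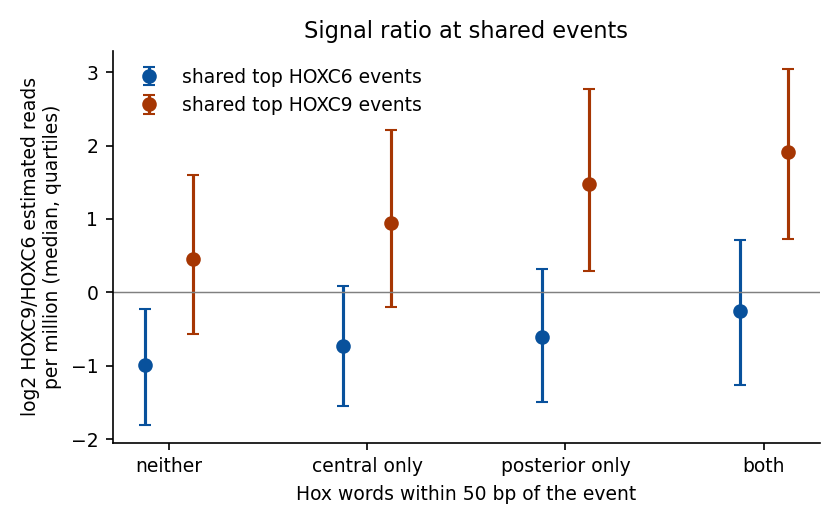
Median log2 ratio of HOXC9 to HOXC6 estimated reads per M (y axis) at shared events grouped by the Hox words within 50 bp (x axis), with bars from the lower to the upper quartile. Medians step from 0.45 to 1.92 in the HOXC9 list and from -0.99 to -0.26 in the HOXC6 list, from neither word to both.

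Single sites spanned a wide range of ratios. The strongest HOXC6 event, in Dner, which encodes a neuronal membrane protein with EGF repeats, had 12373 HOXC6 and 8603 HOXC9 reads, a log2 ratio of -1.40. Its window held TAAT and no TTTAT. The strongest HOXC9 event, in Crybg3, had 14440 HOXC9 and 805.0 HOXC6 reads, a ratio of 3.29. At the second strongest, near Hormad2, 14214 HOXC9 reads faced 129.1 HOXC6 reads, a ratio of 5.90. The event beside Gpr84, with 11793 HOXC6 reads, also had 113.6 control reads, far over the class median of 1.70.

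Positions in the genome were similar for shared and HOXC9-alone events. Within 1 kb of the start of a protein-coding transcript (TSS) lay 2.36% of HOXC9-alone and 2.12% of shared HOXC9 events (difference 0.24 points, interval -0.35 to 0.87). Introns held 46.6% and 45.3%, and space outside protein-coding genes held 51.4% and 52.6%. The median distance to a TSS was 54.7 and 56.5 kb. Most sites of both classes were thus far from promoters.

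HOXC6-alone events were found more often at promoters and exons, and the promoter difference depended on the settings. Within 1 kb of a TSS lay 5.50% of them and 3.02% of shared HOXC6 events (difference 2.48 points, interval 0.75 to 4.89). Exons held 6.72% and 2.62%, and coding exons 3.67% and 0.49%. Control reads moved with this class, since 8.96% of HOXC6-alone events had 10 or more estimated control reads, against 0.79% of shared HOXC6, 0.57% of shared HOXC9 and 1.14% of HOXC9-alone events. Of the 18 HOXC6-alone events in coding exons, 10 had 10 or more control reads, against 0 of 47 such shared HOXC6 events. Foxa2 held 5 of the 18. Without events of 10 or more control reads the promoter difference turned to -0.61 points, with an interval of -1.69 to 1.24. With full lists of equal length it was 0.78 points (interval -0.07 to 1.78), and with events ranked by q-value 0.41 points (interval -0.87 to 2.42), so both intervals span 0. Repeat-masked bases made up 50% or more of the window at 13.0% of HOXC6-alone and 8.42% of shared HOXC6 events.

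Foxa2 encodes a transcription factor of endoderm and floor plate, and it held 10 HOXC6 events, all in its coding exons, with 436.6 to 1186 HOXC6 reads and up to 28.0 control reads, of which 5 were alone. HOXC9 had 3 events in Foxa2, of 173.8 to 200.8 reads. At Pgk1, a glycolytic gene on the X chromosome, 4 HOXC6 events lay within 1 kb of the gene, 3 of them alone, with 4.50 to 17.0 control reads. The part of the control signal in these calls was not tested, nor was whether the reads at the Foxa2 exons and the Pgk1 promoter came from these genomic loci, so these events are listed calls and not established binding.

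Genes with the most alone events differed between the factors. By nearest gene start, HOXC6-alone events numbered 5 at Foxa2 and, in alphabetical order, 3 each at Def8, Glra1 and Hes1, a Notch effector. HOXC9-alone events were most frequent at Auts2, a neurodevelopmental gene, with 12, followed by Galnt17, Irx3 and Pik3c3 with 9 each and Gtdc1 with 8. Irx3 encodes a homeodomain factor of neural progenitors, and its 9 events lay 74.5 to 230.7 kb from its start. At Auts2, Galnt17, Irx3, Pik3c3 and Gtdc1 the HOXC9 list also held 9, 8, 8, 5 and 8 shared events. The same regions thus held both classes. The shared HOXC6 events were led by Zfp608 with 23, Adgrl2 with 19, the axon guidance receptor Robo1 with 17, and BC052040 and Jarid2 with 15 each, and the shared HOXC9 events by Zfp608 with 22, Nr2f2 with 16, Sox5 and Stim2 with 14 each and Bcl11a with 13. Long genes and wide gaps between genes gather more events, so these counts follow the size of the region too.

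Genes were then taken by the presence of an event within 50 kb of the gene start. Of 21728 protein-coding genes, 418 (1.92%) had a HOXC6-alone event, 2125 (9.78%) a HOXC9-alone event and 6203 (28.5%) a shared event. No member event lay within 50 kb of 14244 genes (65.6%). The gene lists below are read against these shares. With a share of 1.92%, a list of 20 genes without any HOXC6-alone event is no finding about its members. Their regulatory landscapes differ in size from the average gene, which was not taken into account.

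Pluripotency genes lay near shared sites. Of 20 genes, 16 had a shared event, 5 a HOXC9-alone and 2 a HOXC6-alone event, and Nanog, Tfcp2l1 and Nr0b1 had no member event. The strongest event near Dppa3, a gene of naive pluripotency, was shared, with 7542 HOXC9 and 1048 HOXC6 reads, or 120.6 and 30.8 per M. Near Klf5 and Klf4, which encode factors of self-renewal, the strongest events had 81.1 and 53.8 HOXC9 reads per M and 39.0 and 34.7 HOXC6 reads per M. Lin28a, an RNA-binding protein of stem cells, had its strongest event in the HOXC9-alone class, with 5510 reads at 7.45 kb from the start, 4259 bp from the nearest HOXC6 event. Near Prdm14 and Nr5a2, the shared event was led by HOXC9, with log2 ratios of 3.70 and 3.50.

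Germ layer genes were near shared events in 12 of 20 cases, with 2 near HOXC9-alone and 2 near HOXC6-alone events. Foxa2 was among the latter, through the coding-exon calls described above as not established binding. At Foxa2 the strongest event was shared, with 1357 HOXC6 and 2018 HOXC9 reads at 6.10 kb from the start. At Lefty1 and Lefty2, Nodal inhibitors that share 1 event, the log2 ratio was -1.92, and near Nodal itself it was -3.71. Near T, the mesoderm factor brachyury, it was 0.83, and near Mixl1 it was 4.35.

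The Hox genes were the list in which HOXC9-alone events were most frequent. A HOXC9-alone event lay within 50 kb of 34 of 39 genes, a shared event of 23 and a HOXC6-alone event of 8, and 12 genes had a HOXC9-alone but no shared event, a combination found at 5.04% of all genes. Neighbouring genes share events, so these 34 genes rest on few sites. Within the clusters and 5 kb at each end lay 2 HOXC9-alone events in HoxA, 3 in HoxB, 4 in HoxC and 1 in HoxD. HOXC6 had 10 top events in HoxA, of which 9 were shared, 5 in HoxB and none in HoxC or HoxD.

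By unscaled reads the highest HOXC9 event exceeded the highest HOXC6 event in all 4 clusters, and per M reads HOXC6 was higher in HoxB. In HoxA the strongest event was shared, with 4180 HOXC9 and 633.1 HOXC6 reads, and lay 0.78 kb from the start of Hoxa4. It had 52.7 control reads. In HoxB the strongest HOXC6 event lay 0.19 kb from the start of Hoxb1, an anterior Hox gene, with 2184 HOXC6 and 217.6 HOXC9 reads, and the strongest HOXC9 event of the cluster had 3189 reads. The strongest event in HoxC was a HOXC9-alone event with 3668 reads, 4.27 kb from the start of Hoxc4, and the highest HOXC6 event there had 130.5 reads. In HoxD the highest events had 863.9 HOXC9 and 105.8 HOXC6 reads. Scaled per M reads, HOXC6 reached 18.6, 64.2, 3.84 and 3.11 in HoxA, HoxB, HoxC and HoxD, and HOXC9 reached 66.8, 51.0, 58.6 and 13.8. Within the HOXC6 list the signal was thus highest in HoxB and lowest in HoxC and HoxD, and within the HOXC9 list it was lowest in HoxD.

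Genes of the cofactors and of the caudal factors, which act upstream of Hox genes, included 8 of 14 with a shared event and 7 with a HOXC9-alone event, and none with a HOXC6-alone event. The strongest was near Pbx3, a Hox cofactor, with 7352 HOXC9 and 2596 HOXC6 reads. Meis2 and Pknox2 had their strongest events in the HOXC9-alone class, with 2123 and 2352 reads. Near Cdx4 the log2 ratio was 4.58, and near Cdx2 it was 1.37.

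In the retinoic acid list, 11 of 18 genes had a shared event, 1 a HOXC9-alone event and none a HOXC6-alone event. Aldh1a2, the enzyme that makes retinoic acid in the embryo, had a shared event 1.59 kb from its start with 6427 HOXC9 and 390.0 HOXC6 reads. Cyp26a1 and Cyp26c1, which degrade retinoic acid, shared an event of 6105 HOXC9 and 276.1 HOXC6 reads. Near Rdh10, an earlier enzyme of the pathway, the factors were close under this scaling, at 75.9 HOXC6 and 73.7 HOXC9 reads per M.

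Neural progenitor and motor neuron genes had shared events in 11 of 23 cases, with 2 near HOXC9-alone and 2 near HOXC6-alone events. Near Pax6, a progenitor factor, the strongest event had 1508 HOXC6 and 316.9 HOXC9 reads, a ratio of -3.13. Near Neurog2, a proneural factor, the only member event was HOXC9-alone, with 1491 reads. No member event lay within 50 kb of 10 of the 23 genes, among them the motor neuron factors Isl1, Isl2 and Lhx3. Of all protein-coding genes 65.6% had none, so their absence is no trait of this list.

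FGF and Wnt genes had shared events in 14 of 20 and HOXC9-alone events in 11 of 20 cases, and none had a HOXC6-alone event. Near Wnt8a, a ligand of the primitive streak, 12 shared events were counted over both lists. A pair in both top lists counts there once for each list, so the distinct sites can be fewer. The strongest event had 3304 HOXC6 and 2125 HOXC9 reads. Spry2 and Etv5, targets of FGF signalling, had ratios of -0.30 and -0.54. Spry4 and Fgfr3 were led by HOXC9-alone events of 3921 and 2154 reads, the latter with 32.9 control reads. Of 22 Eph and ephrin genes, which encode guidance receptors and ligands, 10 had a shared, 4 a HOXC9-alone and 3 a HOXC6-alone event. Near Efnb3 the ratio was -3.07, and near Efna5 it was 3.09.

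Events of both factors were compared with day 3 neurons, in which the same factors had been induced for 24 h under retinoic acid and a smoothened agonist. The day 3 lists held 17898 HOXC6 and 74067 HOXC9 events, so a higher share near HOXC9 follows list length too, and the comparisons are made within a list. Of HOXC9-alone events, 60.1% had a day 3 HOXC9 event within 100 bp, against 36.0% of shared HOXC9 events (difference 24.1 points, interval 22.1 to 26.1). With the strongest 10000 day 3 events only, the shares were 26.2% and 13.6%. HOXC9-alone events were thus the class most often listed again for HOXC9 in neurons. Of HOXC6-alone events, 10.8% had a day 3 HOXC6 event, against 12.0% of shared HOXC6 events, and the difference of -1.23 points had an interval of -3.76 to 1.90. With full lists of equal length this difference was -2.14 points (interval -3.60 to -0.56), and within 200 bp it was 0.58 points (interval -2.30 to 4.00).

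Words were related to being listed again. Of HOXC9-alone events with TTTAT, 64.4% had a day 3 HOXC9 event, and of those without it 47.4%. Among shared HOXC9 events the shares were 46.7% and 27.5%. With CAGCAGG the shares were 22.0% of shared HOXC9 events and 34.2% of alone events, against 39.2% and 62.2% without it. With TGATTNAT they were 63.2% of shared and 80.6% of alone events. Events with Hox or PBX-Hox words were therefore listed again in neurons more often than events with CAGCAGG in these classes.

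Of the other lists, those of MEIS differed between HOXC9-alone and shared HOXC9 events, whereas for HOXC10 the interval of the difference spans 0. The MEIS lists came from lines with a V5-tagged Hox protein, not from the Flag-tagged lines of the EBs. Each MEIS and each PBX list rests on 1 library. The HOXC10 list pools 3 libraries of V5-tagged and Flag-tagged lines. MEIS in iHoxc6 neurons lay within 100 bp of 8.96% of HOXC6-alone, 6.81% of shared HOXC6, 5.29% of shared HOXC9 and 1.66% of HOXC9-alone events. For MEIS in iHoxc9 neurons the shares were 11.2%, 9.62%, 10.5% and 7.98%. The iHoxc6 MEIS list held 8154 events and the iHoxc9 MEIS list 22703, so shares are compared within a list and not between them. HOXC9-alone minus shared HOXC9 was -3.63 points for MEIS in iHoxc6 neurons (interval -4.32 to -2.93) and -2.50 points for MEIS in iHoxc9 neurons (interval -3.64 to -1.33). HOXC10 day 3 events lay at 18.3% of HOXC9-alone and 17.1% of shared HOXC9 events (difference 1.11 points, interval -0.43 to 2.68). PBX lists at day 4, of 1164 and 848 events, touched at most 8 members of any class.

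**Figure D5:**
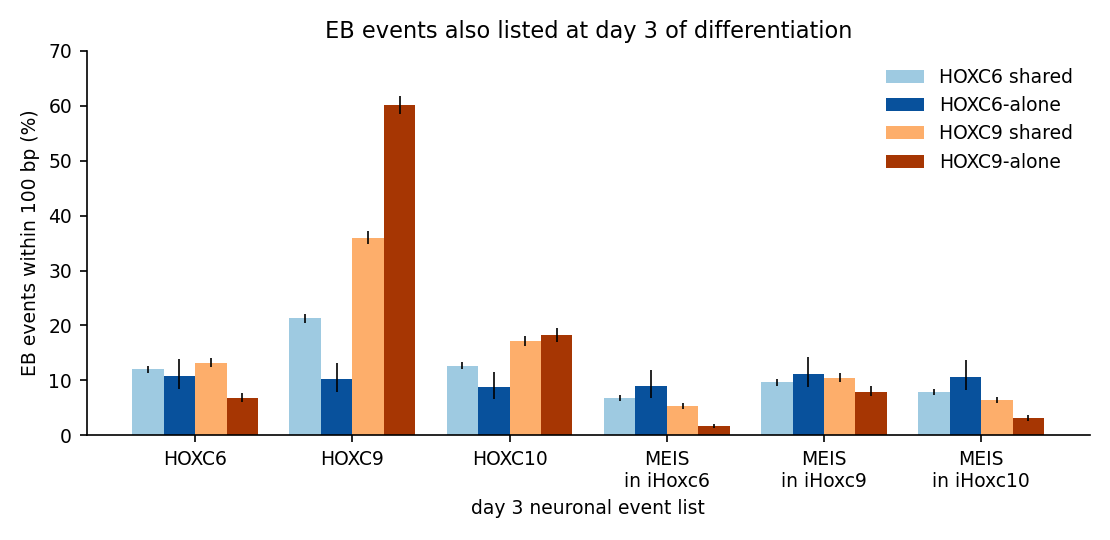
Share of EB events within 100 bp of an event of each day 3 list (y axis, percent) in the 4 classes, with 95% Wilson intervals. HOXC9-alone events reach 60.1% for day 3 HOXC9 and 1.66% for MEIS in iHoxc6 neurons.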

How the data were processed

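ChIP-seq libraries from EBs after 12 h of Dox were compared (HOXC6 and HOXC9, 2 libraries each, grouped by their labels). The authors aligned reads to mm10 with Bowtie 1.0.1, keeping single best hits, and called events with MultiGPS over the pooled libraries of a condition against a control, at a q-value under 0.001. Per the submitters' processing notes, Picard 2.8.2 and edgeR 3.22.5 were also used. The deposited lists give, per event, the estimated count of ChIP reads, an estimated count for the control, a log2 fold of the former over the latter, and a q-value on the log2 scale, which served as a score to rank or filter events in alternatives. ChIP values were not normalized by the authors for depth.

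Here estimated counts were used to rank events and, divided by the summed reads of the 2 libraries in M (1000000 reads), for ratios, with no pseudocount since both counts are above 0. No test was run, because the lists pool replicates. Shares have 95% Wilson intervals, differences Newcombe intervals, and medians binomial order-statistic intervals. All 44678 and 128322 deposited sequences were found within 100 bp of their event on GRCm38, the same assembly as mm10. Genes are those of GENCODE mouse release 21 and genome sequence is from RefSeq. A TSS within 1 kb is of any protein-coding transcript, and gene windows start from the gene start. Words were searched within 50 bp on both strands, with flanks 1 kb to each side. Functions were tested on simulated data.

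Members, words and gene lists were chosen with earlier results of these data known, and CAGCAGG after its offset had been seen. Named genes were the list members with an event within 50 kb, by highest reads per M (up to 6 a list), and the 5 genes nearest to most events of a class. 1 gene that the rule names is not reported here. Named sites were the 3 strongest of a class and those nearest the 100-bp limit. Alternatives covered distance, ranking, list length, scaling, windows and control reads. Events off chromosomes 1 to 19 and X (73 and 66) were left out. Python 3.11.15, numpy 2.4.6, pandas 2.3.3 and scipy 1.17.1 were used.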

Additional observations from a re-analysis of the deposited data

How the results depend on the processing

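Of the values recomputed under an alternative, 71 stayed within the interval of the reported value (counts of genes within 1.5 times), 35 moved, and 2 changed sign where that interval excluded 0. The shared HOXC6 share was 87.0% at 50 bp, 96.7% at 200 bp, 97.9% in the top 5000, 88.4% in the top 20000, 38.2% against the other top list only, 80.4% with lists of equal length, 90.5% with a stricter q-value in both lists and 1.68% after moving the events by 10 kb. The shared HOXC9 share was 55.8%, 66.0%, 70.7%, 54.6%, 38.9%, unchanged at equal length by construction, 52.4% and 0.73% in the same order. The HOXC6-top median ratio was 0.14 without scaling, a change of sign, -1.72 with signal fractions and -0.65 with partners summed, and the HOXC9-top median was 2.10, 0.24 and, at 50 bp, 1.13. The promoter difference of HOXC6-alone was 0.41 points by q-value ranking and -0.61 points, a change of sign, without events of 10 or more control reads, and that of HOXC9-alone, whose interval spans 0, also changed sign, to -0.44 points at 5 kb, -0.10 with all genes, -0.20 by q-value ranking and -0.12 without those control reads. The TTTAT difference of HOXC6-alone was -12.4 points within 100 bp and -2.88 points after subtracting flanks, and that of HOXC9-alone was 23.7 points within 25 bp and 23.9 points within 100 bp. The TAAT difference of HOXC9-alone was 1.63 points within 100 bp. The day 3 difference of HOXC9-alone was 12.6 points with the top 10000 day 3 events, and that of HOXC6-alone, whose interval spans 0, changed sign at 200 bp (0.58 points) and excluded 0 with lists of equal length (-2.14 points). Genes with a HOXC6-alone event numbered 95 at 10 kb, 833 at 100 kb and 1541 with lists of equal length, genes with a HOXC9-alone event 455 and 3959 at these distances, and genes with a shared event 1621 and 10388. The interval of the HOXC6-alone difference in TGATTNAT excluded 0 with lists of equal length (3.25 points) and for events with no HOXC9 event within 1 kb (3.98 points, interval 0.94 to 8.12), and spanned 0 in the other alternatives that have one. The alternatives on control reads, on a distance of 1 kb and on the fixed TTTAT offset were chosen after seeing the data. Libraries could not be left out, since the lists give no value per library. No paired analysis was possible because the lists pool the replicates and no result comes from a test. The HOXC6 libraries had 34.0 M reads against 62.5 M for HOXC9, so an absent HOXC6 event says that none was listed at this depth.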
